A study of Gallus gallus with 14 samples.

Results

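The claudin genes CLDN1, CLDN2, CLDN5 and CLDN20 were followed in the retinal pigment epithelium (RPE) of the chicken embryo, to compare when the signal of each became high. They were found by gene symbol: every probe set whose only symbol in the supplied probe table was 1 of these 4 names was taken, which gave 6 of the 38439 probe sets on the array and 4 of the 13009 genes named there. Sheets of RPE, the pigmented cell layer behind the neural retina, had been taken on embryonic day 7 (E7), on E10, on E14 and on E18. The first and last age had 4 arrays each and the others 3 each, and by the design text each stood for a separate preparation made from 20 to 30 eyes. The labels give neither strain nor sex nor any treatment, so the 4 groups differ in age alone as far as they say.

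Claudins are small membrane proteins that join across the gap between neighbouring epithelial cells and form the strands of the tight junction. Which claudins a cell makes sets how tight the junction is and which ions it lets through. In the RPE these junctions are the outer blood-retinal barrier, which separates the choroidal blood vessels from the photoreceptors. CLDN1 is known as a sealing claudin, best studied in mouse and human skin. CLDN5 is the sealing claudin of mammalian blood vessel endothelium, including the blood-brain barrier. CLDN2 forms channels that let small cations and water pass between cells in leaky epithelia such as the mammalian kidney proximal tubule. CLDN20 is a little-studied family member.

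Values below are log2(signal + 16) after quantile normalization, a change is the later age mean minus the earlier, with its standard error (SE) from limma, and a change counts as a call where its p, adjusted over all 23063 probe sets tested, was under 0.05. The verbs rose and fell are used of calls. Signals of different probe sets are not comparable as levels, so each claudin is set against its own signal at other ages. All 6 claudin probe sets passed the filter for dim probe sets, which left out those with a mean over all arrays below 6.2. As this mean covered all ages, a gene that is dim at some ages could pass through its signal at another.

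The RNA carried the marks of RPE at every age. Of 13 RPE marker genes with a probe set all were tested, and the pigment genes DCT and TYRP1 had age means between 15.10 and 15.35. LRAT, the enzyme that esterifies retinol, was the marker below 6.2 at E7 (5.55) and E10 (5.47). The summed linear signal of the 13 ran from 217500 to 224100 at E7 and from 318800 to 326200 at E18. For E10 against E7, 4 of the 13 rose and 2 fell, with 8.78% and 8.08% of all genes. For E18 against E7, 7 rose and 2 fell, with 21.6% and 26.7% of all genes. MITF was among those that fell over this span, by 0.65 ± 0.12 (adjusted p = 4.69e-04), and its change was -0.347 and no call after median centring. Correlation between arrays of an age ran from 0.936 to 0.980, and array medians of the deposited signal from 83.3 to 145. An instrument file was used for 9 arrays, which are called the shared session below. Having such a file is the ground for this grouping, so a common run is assumed. No such file was used for E7 replicates 1, 2 and 3 or E18 replicates 2 and 3, so their session is not known. Among the E18 arrays the alpha globin HBA1 stood at 14.88 and 14.83 on the arrays of the shared session (replicates 1 and 4), and at 9.84 and 9.67 on the others. At E7 it stood at 11.95, 12.01 and 8.90 on replicates 1, 2 and 3, and at 7.59 on replicate 4, of the shared session. The E7 arrays without a file were thus not alike in HBA1. In whole sheets of tissue, more cells making a transcript and more transcript per cell cannot be told apart.

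In each of the 6 pairs of claudins the log2 difference between the 2 genes changed with age, by the test given below. That test also passes where 2 genes change at the same ages by different amounts, so it does not compare timing alone. The pairs with CLDN20 rest on a probe set chosen through its E18 signal. CLDN1, CLDN5 and CLDN2 each had their largest change for E10 against E7, and CLDN20 for E18 against E14. All E10 arrays but only E7 replicate 4 lie in the shared session, so E10 against E7 partly follows that grouping. Over alternative ways of scaling, fitting and choosing arrays, the shared session alone among them, this change ranged from 4.14 to 4.74 for CLDN1. It ranged from 1.5 to 1.78 for CLDN5 and from 1.9 to 2.83 for CLDN2. CLDN5 reached its highest mean at E10, CLDN1 at E14, and CLDN2 and CLDN20 at E18. These ages are of the means: E10 and E14 were not told apart for CLDN5, nor E14 and E18 for CLDN1 and CLDN2. On the linear scale CLDN5 already had 30.3% of its highest age mean at E7, and it stood at 100% at E10, 99.0% at E14 and 77.2% at E18. CLDN1 stood, in order of age, at 1.29%, 34.3%, 100% and 68.6% of its highest mean. CLDN2 had 6.29%, 30.4%, 72.7% and 100% of its own. CLDN20 had 1.44%, 1.89%, 6% and 100%, by the probe set chosen through its E18 signal. These shares are of the brightest probe set of each gene. The other CLDN20 probe set had log2 age means of 6.80, 6.27, 6.52 and 7.42, a much flatter course. The other CLDN5 probe set had log2 means of 11.14 at E10 and 10.12 at E18. The plot of level relative to each gene's own highest age shows the courses of the brightest probe sets.

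**Figure D1:**
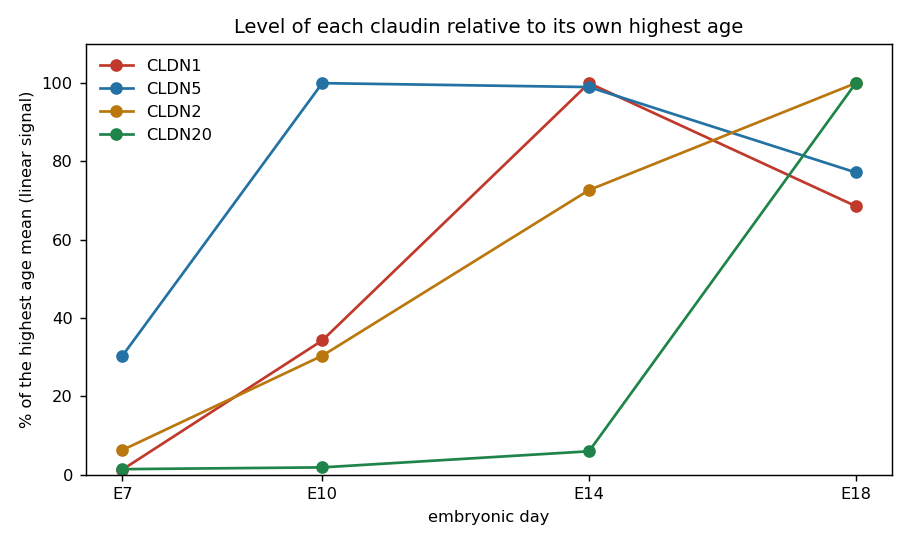
Linear signal of the 4 claudins at each embryonic day (x axis) as a percentage of that gene's highest age mean (y axis); each point is computed from the mean log2 signal of 3 or 4 arrays. CLDN5 is at 100% by E10, CLDN1 at E14, and CLDN2 and CLDN20 at E18, where CLDN20 had 6% at E14. Only the brightest probe set of each gene is drawn, and that of CLDN20 was chosen through its E18 signal.

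CLDN1 had the steepest early course of the 4. Its log2 signals at E7 were 7.43, 6.31, 7.65 and 7.60. At E10 they were 11.74, 11.92 and 11.83. At E14 they were 13.32, 13.34 and 13.44, and at E18 12.83, 12.94, 12.80 and 12.74. No 2 ages overlapped in any array, and replicates lay close together except at E7, where replicate 2 was the lowest. The standard deviation was 0.63 at E7, 0.06 at E14 and 0.08 at E18. The fit shares 1 estimate of the spread over the ages, so the E7 spread enters the SE of every contrast. CLDN1 rose by 4.58 ± 0.23 (SE) for E10 against E7, a 23.9-fold difference (adjusted p = 3.58e-09), and ranked 1 of the 10206 genes tested by size of rise. In this contrast 12.4% of all probe sets were called. It rose again for E14 against E10, by 1.54 ± 0.24 (adjusted p = 0.00106), where 5.76% of all probe sets were called. The E14 mean was 69.5-fold above that at E7 (adjusted p = 3.02e-11), a contrast that called 22.6% of all probe sets. For E18 against E14 the change was -0.54 ± 0.23, not a call (adjusted p = 0.109), in a contrast that called 19.5% of all probe sets, although all 4 E18 arrays lay below all 3 E14 arrays. It became a call within the shared session (-0.584, adjusted p = 7.89e-05) and without E7 replicate 2 (-0.542, adjusted p = 2.17e-04). At E18 the signal was still above E10, by 1.00 ± 0.23 (adjusted p = 0.00272), with 32.6% of all probe sets called. The order of the ages was therefore E7, E10, E18 and E14 from low to high, with E18 and E14 not told apart by the fit on all arrays. Of all probe sets 6.84% were higher and 5.58% lower in E10 against E7, and 3.28% higher and 2.48% lower in E14 against E10.

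The first step of CLDN1 was larger than the later ones. It exceeded the change for E14 against E10 by 3.04 ± 0.41 (adjusted p = 5.43e-04) and that for E18 against E14 by 5.12 ± 0.32 (adjusted p = 3.38e-08). Such differences between steps were called in 3.94% of all probe sets for the first against the second, 16.1% for the first against the last and 2.44% for the second against the last. By E10 it had covered 74.9% of its rise to the E14 mean on the log2 scale.

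CLDN5 rose once, early, and then stayed level until E14. The brighter of its 2 probe sets gave 10.32, 10.37, 10.59 and 10.65 at E7 and 12.14, 12.22 and 12.21 at E10. It gave 12.20, 12.19 and 12.15 at E14, and 11.82, 11.82, 11.86 and 11.77 at E18. The E10 and E14 arrays overlapped, the E18 arrays lay below both, and the E7 arrays lay below all others. CLDN5 rose by 1.71 ± 0.08 for E10 against E7, 3.28-fold (adjusted p = 3.39e-09). For E14 against E10 the change was -0.01 ± 0.09 (adjusted p = 0.964). For E18 against E14 it fell by 0.36 ± 0.08 (adjusted p = 0.00582), with 11.2% of all probe sets lower in this contrast. The fall was -0.381 after each array was centred on its median, where it was no call (adjusted p = 0.211). Its first step exceeded the second by 1.73 ± 0.15 (adjusted p = 1.63e-05) and the last by 2.07 ± 0.12 (adjusted p = 1.27e-08).

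The other CLDN5 probe set gave the same order with a larger late fall. Its signals were 9.61, 9.18, 9.67 and 9.77 at E7, 11.28, 11.04 and 11.10 at E10, 11.15, 11.06 and 11.06 at E14, and 10.32, 9.94, 9.77 and 10.45 at E18. The E18 arrays lay below the E10 and E14 arrays, and replicate 3 at E18 was level with the highest E7 array. The rise for E10 against E7 was 1.59 ± 0.16 (adjusted p = 8.73e-06) and for E18 against E14 it fell by 0.97 ± 0.16, 1.96-fold (adjusted p = 4.23e-04). For E18 against E7 this probe set had a change of 0.56 ± 0.15 and the brighter one a change of 1.34 ± 0.08, so the 2 probe sets differ in how much of the early rise was left at E18. Among the 5 arrays outside the shared session that smaller change was 0.369 and no call (adjusted p = 0.165). Which transcript ends each of them reads is not known from the files.

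CLDN5 is also a gene of blood vessels, and vessels of the choroid lie next to the RPE. Of 24 endothelial marker genes listed, 21 had a probe set and 9 passed the filter. KDR, FLT1, TEK, TIE1 and CDH5 were among the 12 left out as dim. For E10 against E7, where CLDN5 rose, none of the 9 passed the test in either direction, against 8.78% higher and 8.08% lower of all genes, and their median change was 0.515, against -0.0149 over all genes. PECAM1, an adhesion molecule of endothelium, had a change of 0.52 (adjusted p = 0.0666), and VWF, von Willebrand factor, one of 0.93 (adjusted p = 0.0895). The summed linear signal of the 21 genes lay between 1553 and 1747 at E7, 1924 and 2050 at E10, 1539 and 2238 at E14, and 1778 and 2534 at E18. It was thus higher at E10 than at E7 on every array, and its part in the CLDN5 rise was not tested.

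CLDN2 rose in each of the first 2 intervals. Its signals at E7 were 7.44, 7.57, 8.17 and 6.90, and at E10 9.73, 9.76 and 9.58. At E14 they were 10.83, 10.91 and 11.05, and at E18 11.65, 11.26, 11.21 and 11.44. The ages did not overlap and kept the order of development. CLDN2 rose by 2.17 ± 0.21 for E10 against E7, 4.50-fold (adjusted p = 4.81e-06), and by 1.24 ± 0.22 for E14 against E10, 2.36-fold (adjusted p = 0.00306). For E18 against E14 the change was 0.46 ± 0.21, not a call (adjusted p = 0.145), with 8.34% of all probe sets higher in this contrast. It was a call within the shared session (0.612, adjusted p = 0.00113) and without E7 replicate 3 (0.458, adjusted p = 0.0489). The first step exceeded the last by 1.71 ± 0.29 (adjusted p = 6.98e-04). Neither the first and second step (0.93 ± 0.38, adjusted p = 0.229) nor the second and last (0.78 ± 0.38, adjusted p = 0.361) were told apart. For E18 against E7 the change came to 3.87 ± 0.19, a 14.6-fold difference. In that contrast 40.7% of all probe sets were called, 18.4% higher and 22.3% lower.

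CLDN20 was the late claudin. The probe set that carried its change gave 5.59, 5.14, 5.50 and 5.40 at E7 and 6.02, 4.88 and 6.10 at E10, all below the limit of 6.2. At E14 it gave 7.51, 7.06 and 6.38, and at E18 10.28, 11.35, 11.65 and 10.17. The E7 and E10 arrays overlapped, the E14 arrays lay above both, and the E18 arrays lay far above the rest. This probe set passed the filter, and stood for the gene as the brighter of 2, through its E18 signal. At E7 and E10 its means (5.41 and 5.67) lay below those of the other probe set (6.80 and 6.27). Its rise at E18, its F test, its tests between steps and its pair tests are therefore not independent of that choice. For E10 against E7 the change was 0.26 ± 0.39 (adjusted p = 0.763), and for E14 against E10 it was 1.32 ± 0.42 (adjusted p = 0.0833). The change for E14 against E10 was a call within the shared session, at 1.32 with an adjusted p of 0.0321. Over both intervals, for E14 against E7, CLDN20 rose by 1.58 ± 0.39 (adjusted p = 0.00794), a call that ended in 3 of 27 alternatives: without E14 replicate 1 (1.31, adjusted p = 0.0548), with the mean of the gene's probe sets (0.646, adjusted p = 0.142) and with a station block (2.41, adjusted p = 0.0512). The gene's other probe set had a change of -0.28 in this contrast (adjusted p = 0.507). For E18 against E14 the brighter probe set rose by 3.88 ± 0.39, 14.7-fold (adjusted p = 3.33e-06). By its change, 9 of the 10206 genes had one at least as large, CLDN20 among them. This last step exceeded the first, with a difference of first minus last of -3.62 ± 0.55 (adjusted p = 2.51e-04). The second and last step were not told apart at the threshold (-2.56 ± 0.71, adjusted p = 0.0774).

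The size of the CLDN20 rise depended on the pseudocount and on the E18 arrays. As its E7 and E10 means lay below 6.2, the change for E18 against E7 was 6.08 with a pseudocount of 1 and 4.40 with 64, against 5.45 ± 0.36 at 16. E18 replicates 1 and 4, of the shared session, averaged 10.22, and replicates 2 and 3, whose session is not known, averaged 11.50. Within the shared session the change for E18 against E14 was 3.24, and it was still a call (adjusted p = 1.45e-04). The 2 sets of E18 arrays also differed in HBA1, as given above, and in the 3'/5' ratio of beta-actin control probes, which is read as a sign of RNA quality. That ratio was 1.56 and 1.47 on the shared-session arrays, and 1.23 and 1.18 on the others. The part of these in the CLDN20 signal was not tested.

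The other CLDN20 probe set had age means of 6.80, 6.27, 6.52 and 7.42, in order of age, and was called for E18 against E14. It gave 7.15, 6.63, 6.93 and 6.49 at E7, 6.65, 6.06 and 6.10 at E10, 6.71, 6.36 and 6.48 at E14, and 7.36, 7.46, 7.66 and 7.21 at E18. All E18 arrays lay above all others, by a small distance. Its change for E18 against E14 was 0.91 ± 0.26 (adjusted p = 0.0230), a call lost in 10 of 28 alternatives, and for E18 against E7 it was 0.62 ± 0.24 (adjusted p = 0.0523). The 2 probe sets of this gene thus disagreed in the size of their change. Whether both read the same strand is not known from the files, so the mean of the 2 may not be a reading of CLDN20 alone.

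**Figure D2:**
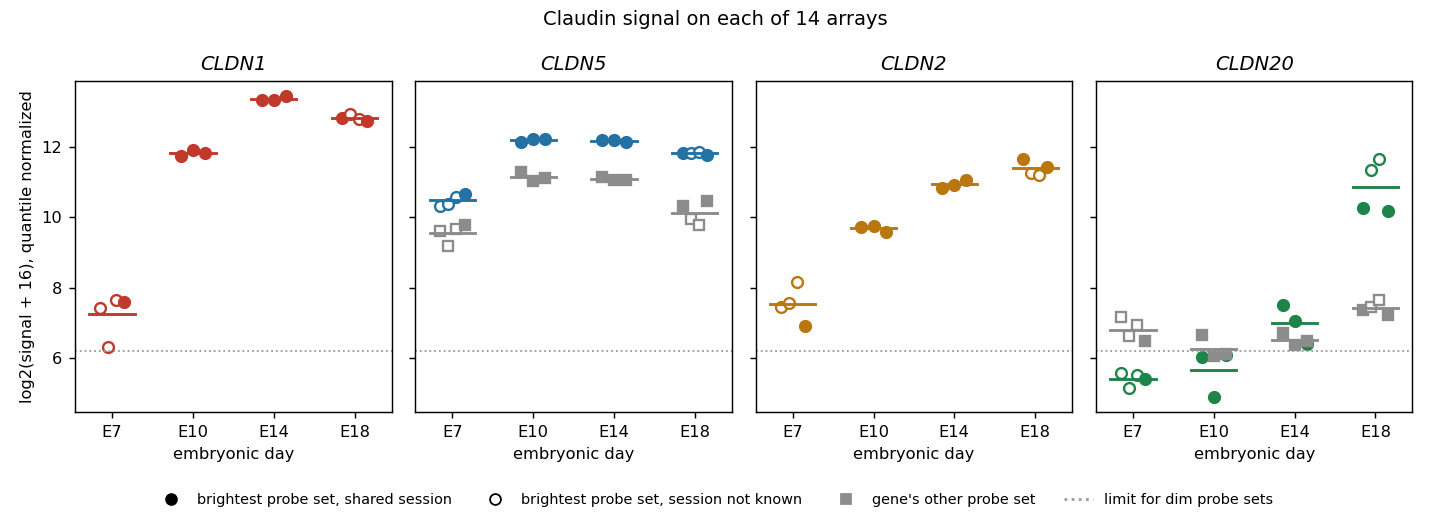
Log2(signal + 16) of each claudin (y axis) on the 14 arrays by embryonic day (x axis), with a horizontal bar at each age mean; filled symbols are arrays of the shared session, open ones arrays whose session is not known, squares the second probe set of CLDN5 and CLDN20, and the dotted line the limit of 6.2. CLDN1 and CLDN2 leave their E7 range by E10, CLDN5 is level from E10 to E14, and the E18 arrays of CLDN20 fall into pairs that average 10.22 and 11.50.

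**Figure D3:**
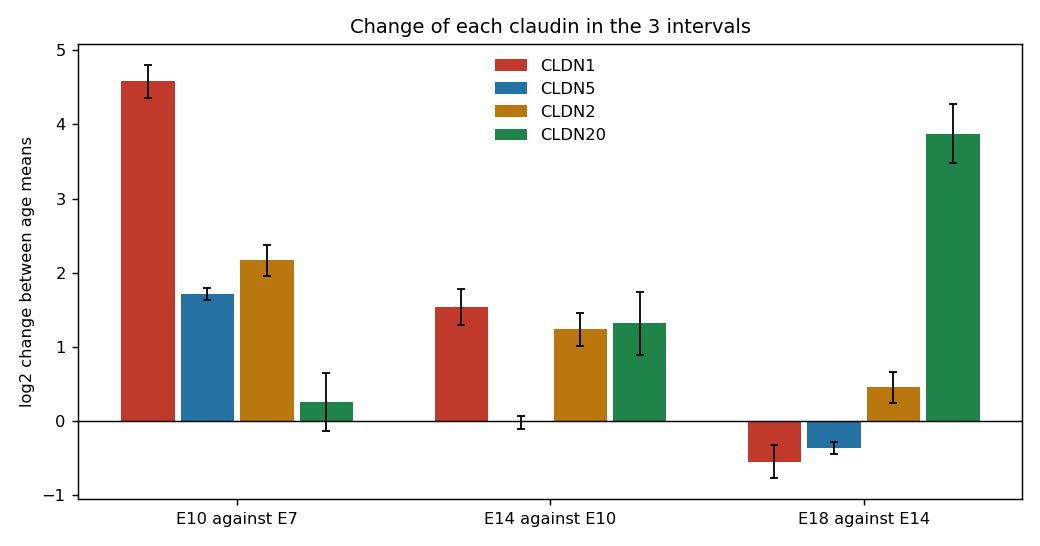
Log2 change between age means (y axis, bars with SE) of each claudin in the 3 intervals (x axis). CLDN1, CLDN5 and CLDN2 have their tallest bar for E10 against E7 (4.58, 1.71 and 2.17), and CLDN20 for E18 against E14 (3.88).

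Whether 2 claudins kept a constant log2 difference over age was tested within each array, where a shift shared by all genes of an array cancels. Genes that change at the same ages by different amounts do not keep it, so the test does not separate size from timing. An exact permutation test over all 4204200 assignments of the 14 arrays to the 4 ages was run for the 6 pairs, with p adjusted over the 6. The difference between CLDN1 and CLDN5 moved by 2.87 for E10 against E7, 4.42 for E14 against E7 and 4.24 for E18 against E7 (exact permutation adjusted p = 1.14e-05). CLDN2 gained 0.458, 1.71 and 2.53 on CLDN5 over the same contrasts (exact permutation adjusted p = 2.85e-05). In the shared session, where E7 replicate 4 is the only E7 array, CLDN2 gained 1.24, 2.5 and 3.49 on CLDN5. The pairs with CLDN20 use a probe set that passed the filter through its E18 signal, so their p values are a description. CLDN20 minus CLDN5 moved by -1.45, -0.123 and 4.11 (exact permutation adjusted p = 7.04e-05). Its value for E14 against E7 was 0.314 with a pseudocount of 1, 0.0494 in the shared session and 0.162 without E14 replicate 3. CLDN20 minus CLDN2 moved by -1.91, -1.84 and 1.58 (exact permutation adjusted p = 1.57e-04). For E18 against E7 this was -0.831 with the mean of each gene's probe sets, 0.851 with a pseudocount of 64 and 0.183 in the shared session. CLDN1 minus CLDN2 moved by 2.41, 2.71 and 1.71 (exact permutation adjusted p = 2.10e-04), and by 1.44, 1.74 and 0.544 in the shared session. CLDN1 minus CLDN20 moved by 4.32 and 4.54 for E10 and E14 against E7 and by 0.125 for E18 against E7 (exact permutation adjusted p = 2.72e-04). The last of these values has no settled sign: it was -0.342 with a pseudocount of 1, 0.771 with 64 and 2.54 with the mean of each gene's probe sets. It was also below 0 without E7 replicate 2 (-0.100), E18 replicate 1 (-0.0723) or E18 replicate 4 (-0.0749). The smallest p this test can give is 9.51e-07.

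Across the 14 arrays the correlation of log2 signal was 0.947 between CLDN1 and CLDN2, 0.943 between CLDN1 and CLDN5 and 0.823 between CLDN2 and CLDN5. CLDN20 correlated less with each of them, at 0.741 with CLDN2, 0.582 with CLDN1 and 0.347 with CLDN5. These values describe 14 arrays that share their ages and their scaling.

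The other claudins on the array gave 1 call each for E18 against E14 and E18 against E7. Of 11 further claudin genes (18 probe sets), 7 genes were tested and CLDN3, CLDN14, CLDN15 and CLDN18 were left out as dim. None of the 7 passed the test for E10 against E7 or for E14 against E10, in limma with Benjamini-Hochberg adjustment, and their median changes were -0.132 and -0.0561. Of all genes 8.78% were higher and 8.08% lower in the first of these contrasts, and 4.65% and 2.79% in the second, which is less than 1 gene in 7 each way. CLDN16, the gene of magnesium reabsorption in the mammalian kidney, was higher for E18 against E14 by 1.29 ± 0.42 (adjusted p = 0.0415, with 9.79% of all genes higher), a call lost in 18 of 28 alternatives, with age means between 6.07 and 7.36. CLDN11, a claudin of myelin and testis in mammals, had a change of -0.90 ± 0.31 for E18 against E7 (adjusted p = 0.0298, with 26.7% of all genes lower), a call lost in 9 of 29 alternatives and within the shared session (-0.459). Among the rest, CLDN12, known from several epithelia and brain endothelium in mammals, lay between 7.59 and 7.96 at all ages, and CLDN4, a sealing claudin, between 7.58 and 8.40 with an adjusted p of 0.398 over the ages. The F test over the 4 ages passed for each of the 4 claudins described above by its brightest probe set (adjusted p = 1.07e-11 for CLDN1, 8.45e-10 for CLDN2, 1.89e-10 for CLDN5 and 1.80e-08 for CLDN20), against 42.1% of all probe sets. The CLDN20 test is not independent of the E18 signal through which its probe set was chosen. These 4 claudins were chosen with earlier results of these data known, so the contrast with the other 11 is a description and no test.

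**Figure D4:**
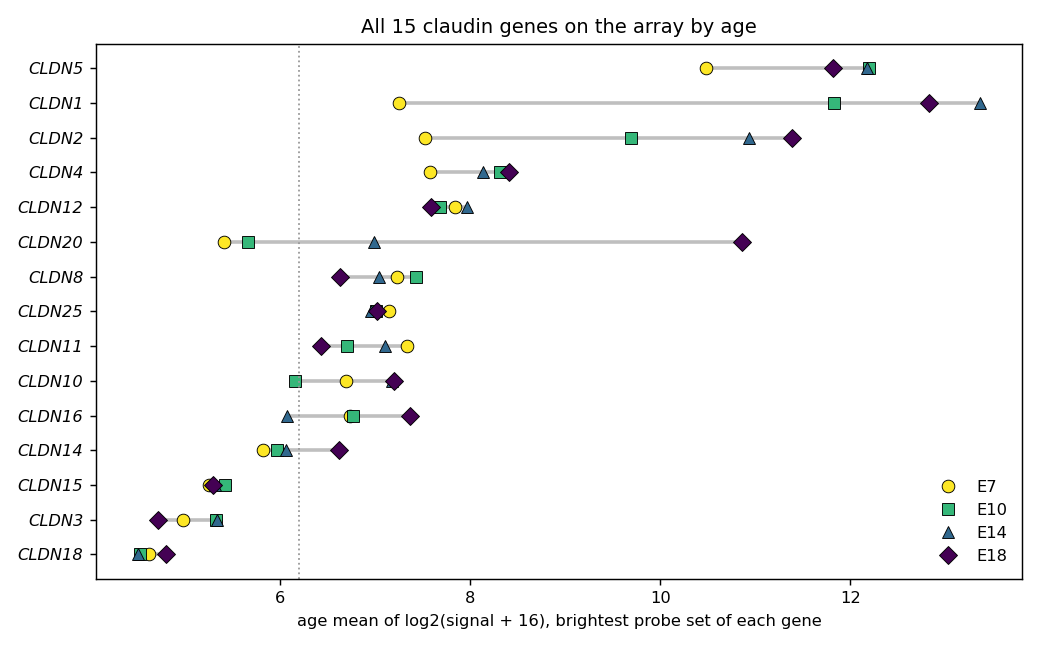
Age means of log2(signal + 16) (x axis) for the brightest probe set of each of the 15 claudin genes (y axis), 1 symbol per age, with the dotted line at the limit of 6.2. CLDN1, CLDN2, CLDN5 and CLDN20, chosen with earlier results of these data known, span more than any of the other 11, whose highest mean is 8.40.

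Other genes of the tight junction were read as counts of calls in each direction, beside the shares of all genes. The list of 47 symbols for strand proteins, scaffolds, polarity complexes and regulators had 34 with a probe set and 32 tested. For E10 against E7, 3 of 32 rose and 4 fell, near the 8.78% and 8.08% of all genes. After median centring none rose and 1 fell, and with the session as a block none rose and 2 fell. PATJ, a scaffold of the Crumbs polarity complex, rose by 0.93 ± 0.21 (adjusted p = 0.00791), a call lost after median centring (0.875) and with the session as a block (0.501). For E14 against E10, 1 rose and 3 fell (none in either direction after median centring), with 4.65% and 2.79% of all genes. The riser was OCLN, occludin, a strand protein unrelated to claudins, by 0.71 ± 0.17 (adjusted p = 0.0181). That call ended on the deposited scale (0.554), after median centring (0.798), and without E10 replicate 1 (0.700), E10 replicate 3 (0.706), E14 replicate 2 (0.668) or E14 replicate 3 (0.674). ILDR2, a protein of the corners where cells meet, fell by 0.60 ± 0.11 (adjusted p = 0.00350), and its change was -0.294 and no call after median centring.

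For E18 against E14, when CLDN20 rose, 4 of the 32 rose and 8 fell, with 9.79% and 15.1% of all genes. PARD6G, an adaptor of the apical polarity complex, had a change of -1.18 ± 0.12 (adjusted p = 4.24e-06), and its partner PARD3 one of 0.60 ± 0.10 (adjusted p = 3.14e-04), which was 0.527 and no call after median centring. EPCAM, an adhesion molecule known to bind claudins in human intestinal cells, fell in both the first and the last interval in the main fit. Its call in the first interval was not followed through the alternatives. Its change for E18 against E7 was -3.05 ± 0.26 (adjusted p = 1.09e-07), -3.89 with a pseudocount of 1 and -2.01 with 64, with age means of 8.18, 7.21, 6.94 and 5.12 in order of age, the last below the limit. With the arrays' fluidics stations as a block within the shared session it was -2.58. Station followed age there: the E7 array was on station 1 and both E18 arrays on station 3, so no station held both ages of this contrast. Over the whole span 8 of the 32 rose and 12 fell, with 21.6% and 26.7% of all genes and a median of -0.112, against -0.0470 over all genes. On the deposited scale 5 rose and 13 fell. AMOTL1, an angiomotin relative at the junction, rose by 0.78 ± 0.07 (adjusted p = 3.77e-07), and YBX3, a factor held at the junction by the scaffold ZO-1, fell by 1.02 ± 0.06 (adjusted p = 1.27e-09).

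**Figure D5:**
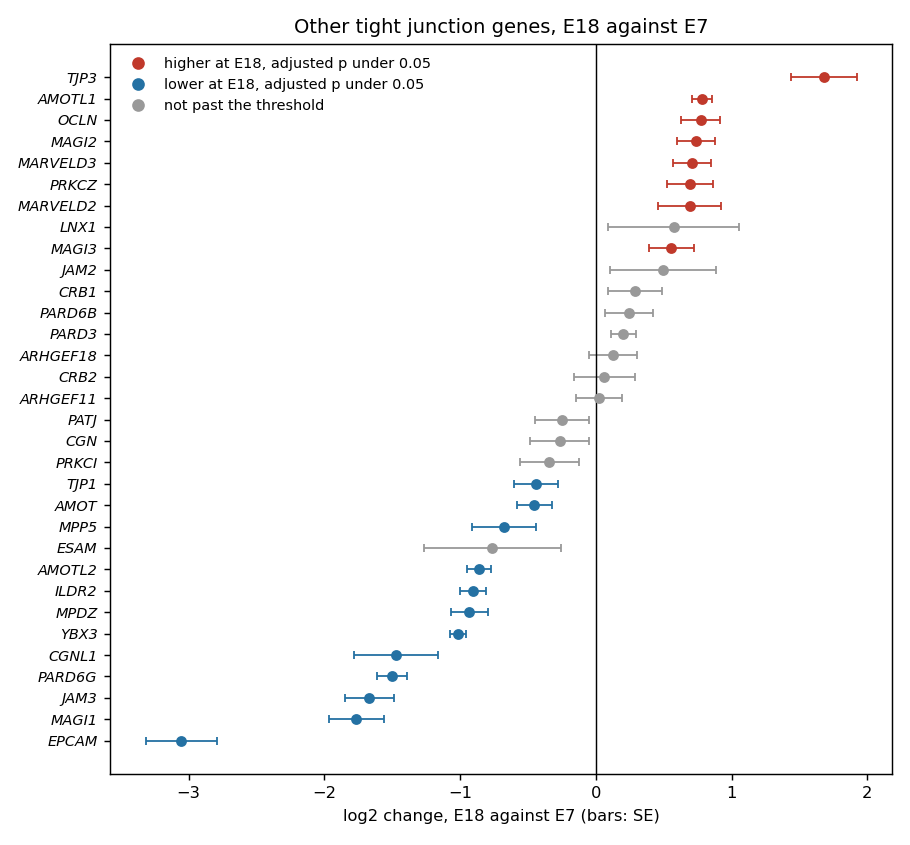
Log2 change for E18 against E7 (x axis, points with SE bars) of the 32 other tight junction genes tested (y axis). Of these 8 were higher and 12 lower at E18, and EPCAM had the lowest change, -3.05.

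Among 27 transcription factors listed for a reported role at claudin genes or in the RPE, 15 were tested. For E10 against E7, 3 rose and none fell, with 8.78% and 8.08% of all genes. For E18 against E7, 5 rose and 2 fell, with 21.6% and 26.7% of all genes and a median of 0.171. HNF4A, a nuclear receptor of liver and gut epithelium in mammals, had age means of 8.06, 10.16, 10.95 and 11.50 in order of age. It rose by 2.10 ± 0.17 for E10 against E7 (adjusted p = 6.70e-07) and by 3.43 ± 0.15 for E18 against E7 (adjusted p = 5.18e-11), 10.8-fold. FOXO1, reported to repress Cldn5 in mouse endothelium, rose by 1.79 ± 0.14 for E10 against E7 (adjusted p = 6.10e-07) and by 1.01 ± 0.15 for E14 against E10 (adjusted p = 7.19e-04). It then fell by 1.02 ± 0.14 for E18 against E14 (adjusted p = 7.63e-05). ZEB1, a repressor of epithelial genes in mammals, fell by 0.45 ± 0.10 for E18 against E14 (adjusted p = 0.00301), and its change was -0.546 and no call after median centring. In that contrast ZEB2 rose by 0.42 ± 0.13 (adjusted p = 0.0263, lost in 7 of 28 alternatives). SNAI1 rose by 0.91 ± 0.27 for E10 against E7 (adjusted p = 0.0403, lost in 15 of 28). It fell by 0.97 ± 0.27 for E18 against E14 (adjusted p = 0.0198, lost in 5 of 28). The list's counts moved with the scaling: after median centring 3 rose and none fell for E18 against E7.

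The genes whose signal was most like that of each claudin were read from Pearson's r over the 14 arrays among 10195 other tested genes, as a description. For CLDN1 these were SLC13A5 (0.990), REEP6 (0.990), ALDH6A1 (0.983), SOCS3 (0.982) and VLDLR (0.982). SLC13A5 is a citrate transporter, SOCS3 an inhibitor of cytokine signalling and VLDLR a lipoprotein receptor. For CLDN5 they were EGR1 (0.985), CRYL1 (0.982), G6PC2 (0.980), CACYBP (0.978) and FOPNL (0.977), of which EGR1 is an immediate-early transcription factor. For CLDN2 they were CKB (0.988), HNF4A (0.986), TTR (0.985), RABEP1 (0.985) and TC2N (0.984). CKB is the brain-type creatine kinase and TTR, transthyretin, carries retinol-binding protein and thyroid hormone. For CLDN20 they were COBLL1 (0.986), PHOSPHO1 (0.984), GALNT11 (0.984), PLXDC2 (0.984) and GMPR2 (0.982). PHOSPHO1, a phosphatase of mineralising tissue, had age means of 5.78, 6.11, 7.31 and 10.73 in order of age. No gene was among the 5 nearest of more than 1 claudin.

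Markers of other epithelia gave 1 call, EPCAM, for E10 against E7, which was not followed through the alternatives. Of 15 such genes (surface, lens and ciliary epithelium) 11 had a probe set and 7 were tested. For E10 against E7 none rose and 1, EPCAM, fell, with 8.78% and 8.08% of all genes, and the summed signal of the 11 lay between 1160 and 1783 at E7, 1224 and 1758 at E10, 1370 and 1414 at E14, and 1215 and 1382 at E18. CDH1, epithelial cadherin, had age means between 8.04 and 8.54. For E18 against E14, when CLDN20 rose, none of the 7 rose and EPCAM fell. In the same contrast none of the 4 tested erythrocyte genes was called in either direction, while the summed signal of 6 such genes ran from 1434 to 46970 among the E18 arrays, 12080 to 12750 at E14, 739 to 1081 at E10 and 945 to 7474 at E7. Retinal neuron, stroma, leukocyte, melanocyte and muscle lists were also read, with 9, 7, 5, 4 and 3 genes tested. For E10 against E7 they had 0, 1, 1, 1 and 1 genes higher and 1, 2, 0, 1 and 0 lower. Of all genes 8.78% were higher and 8.08% lower. For E18 against E14 they had 1, 0, 1, 1 and 1 higher and 3, 2, 0, 2 and 0 lower. The shares of all genes there were 9.79% and 15.1%. Summed leukocyte signal (3928 to 4954 at E7, 6546 to 8671 at E10) was higher at E10 on every array. So were the muscle sum (642 to 860, then 989 to 1227) and the melanocyte sum. The retinal neuron sum was lower and the stroma sum overlapped.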

How the data were processed

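The deposited values are 1 linear intensity per probe set and array. The labels' protocols give a 3' amplification with in vitro transcription on Affymetrix arrays, and the authors' summarising software is not given in the sources used here. Array means after trimming 2% at each end were all 500.1, so the deposited intensity had been scaled. The 9 deposited instrument files, with unit other, hold fluidics and scanner settings, and their presence defined the shared session.

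After 96 control probe sets were left out, log2(intensity + 16) was quantile normalized, the dimmest 40% by mean were dropped (limit 6.2, a signal of 57.5), and the 14 arrays were fitted with limma 3.58.1 in R 4.3.3 (lmFit, eBayes with a trend), with Benjamini-Hochberg adjustment over 23063 probe sets. The brightest probe set stood for its gene. The table names 27168 probe sets with 1 symbol, 177 with several and 11094 with none. Pairs of claudins were compared by exact permutation in Python, and figures drawn with matplotlib 3.10.9. The fit was also run on simulated data with independent normal noise and some probe sets raised at E18 alone. Those data had no grouping of arrays and the same spread at every age, so they do not vouch for the p values given here. Precision is limited by 3 or 4 arrays per age.

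The 4 claudins, all lists of genes and the naming rule (all claudins, list members with the smallest adjusted p, the 5 most correlated genes) were chosen with earlier results of these data known. Replicate numbers are shared between ages, but 2 of 19 same-numbered pairs had deviations correlated above 0.1, so they were not taken as pairs. Alternatives covered scaling, pseudocount, filter, trend, array weights, subsets of arrays and blocks. The session and station blocks and the use of a gene's other probe set were chosen after seeing the data. Within the shared session station followed age, so the station block overlaps with the age contrasts.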

Additional observations from a re-analysis of the deposited data

Results flagged for a closer look

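CLDN1 in E7 replicate 2, at 6.31 on the log2 scale, lay far below the other 3 E7 arrays (7.43 to 7.65). It was the single value of 12 groups of 4 arrays whose gap to its nearest neighbour, as a share of the group's range, passed Dixon's limit of 0.829. Chance flags about 1 in 20 groups. Without this array the CLDN1 change for E10 against E7 was 4.27, against 4.58 with it.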

How the results depend on the processing

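Of 460 alternative values for the changes of the 4 claudins between ages, 436 kept their direction and their side of the threshold. The F tests, which have no direction, kept their side in all 108 values for change over any age and all 126 for the pairs, though 3 differences behind the pair tests changed sign, as given with them. Some of these values could not differ. Median centring cancels in a difference within an array, so its pair values repeat those of the deposited scale. CLDN1 and CLDN2 have a single probe set each, so the mean of a gene's probe sets leaves them unchanged. Median centring gave CLDN5 E18 against E14 -0.381 (no call) and CLDN5 E14 against E10 0.307. The change for E14 against E10 was 0.0635 on the deposited scale and between -0.0397 and 0.00119 when each array was left out. CLDN1 E18 against E14 became a call with a pseudocount of 64 (-0.539), the 2 ages alone (-0.542) and the shared session alone (-0.584). It also did without the 4 arrays of lowest beta-actin 3'/5' ratio (-0.584) and with a station block (-0.658). This change ranged from -0.579 to -0.505 when each array was left out. CLDN2 E18 against E14 became a call with array weights (0.514), the 2 ages alone (0.458), the shared session (0.612) and a station block (0.497), and ranged from 0.371 to 0.518 when each array was left out. CLDN20 E14 against E10 became a call with array weights (1.42), in the shared session (1.32), without those 4 arrays (1.32), with a session block (1.32) and with a station block (1.79). For CLDN20 E10 against E7 the mean of both probe sets gave -0.138 and the other probe set -0.532 (0.158 with a station block), and for E18 against E7 the other probe set gave 0.623. The other CLDN5 probe set gave 0.232 (median centring) and 0.0315 (station block) for E14 against E10, and between -0.104 and 0.016 when each array was left out, the highest without E10 replicate 1. The cause of these shifts was not tested.

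With the replicate block CLDN1 changed by 4.62 for E10 against E7, no claudin call changed, and probe sets called for E18 against E7 were 9287 with it and 9386 without it. The numbers share no stated source: same-numbered pairs correlated between -0.229 and 0.154, and 1 of 14 arrays correlated best with its own number. Probe sets called were 2864 for E10 against E7 (1045 with median centring, 4697 with array weights, 1894 without E10 replicate 3), 1328 for E14 against E10 (680 with median centring, 3731 with array weights, 791 without E10 replicate 1, 835 without E10 replicate 3, and 781, 773 and 758 without E14 replicates 1, 2 and 3), 4504 for E18 against E14 (2809 with median centring) and 9386 for E18 against E7 (3886 with a station block). The share of calls that were higher at E18 than at E7 was 45.2%, 35.2% on the deposited scale and 54.8% after median centring, and the median of all probe sets was -0.0482, -0.201 and 0.0137. For E10 against E7 it was 55.1% and 67.7% after median centring, and for E14 against E10 56.9% and 83.8%. Signal near the limit of 6.2 fixes no size of change for CLDN20 before E14.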

Other observations

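Genes next to the claudins were looked up in RefSeq's gene table for the assembly GRCg7b, by name and order only, a comparison chosen after the data were seen. TFB1M, a mitochondrial RNA methyltransferase gene that overlaps CLDN20 there, rose by 0.95 for E18 against E14 (adjusted p = 3.71e-05), against 3.88 for CLDN20, and had a change of -0.23 for E10 against E7 (adjusted p = 0.270). Of the genes to either side of CLDN20, NOX3 was not tested and TIAM2 had a change of -0.51 for E18 against E14 (adjusted p = 0.128). CLDN16 lies next to CLDN1, and its change for E10 against E7, where CLDN1 rose by 4.58, was 0.04 (adjusted p = 0.973). P3H2, on the other side of CLDN1, had one of -0.56 (adjusted p = 0.587). RIPPLY1 overlaps CLDN2 and had a change of 0.24 for E10 against E7 (adjusted p = 0.738), against 2.17 for CLDN2. On the 2 sides of CLDN2, VSIG10L fell by 1.45 in this contrast (adjusted p = 0.0413) and PRRG3 had a change of 0.31 (adjusted p = 0.429). PRRG3 fell by 1.19 for E18 against E14 (adjusted p = 8.01e-04). CDC45, a DNA replication gene next to CLDN5, fell by 1.34 on the log2 scale for E10 against E7 (-1.34, adjusted p = 0.0224), the interval in which CLDN5 rose.

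Between the E18 arrays with and without an instrument file the claudins differed in different directions. The shared session minus the other arrays, with 2 arrays each, was -1.27 for CLDN20, 0.308 for CLDN2, -0.084 for CLDN1, -0.046 for the brighter CLDN5 probe set and 0.529 for the other. The arrays of the 2 sets did not overlap for CLDN20, CLDN2 or either CLDN5 probe set, and they did for CLDN1.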
